A study of Mus musculus with 4 samples.

Results

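The TET, DNMT and partner enzyme genes are the 10 genes Tet1, Tet2, Tet3, Dnmt1, Dnmt3a, Dnmt3b, Dnmt3l, Tdg, Uhrf1 and Uhrf2, taken by name from 26031 gene models. They were examined in maps of 5-hydroxymethylcytosine (5hmC) from mouse embryonic stem (ES) cells and mouse embryonic fibroblasts (MEFs). Each cell type was compared between wild-type cells and cells knocked out for LSH, a SNF2-family chromatin remodeler encoded by Hells. Each of the 4 groups (ES wild type, ES LSH knockout, MEF wild type, MEF LSH knockout) has 1 library, made from DNA fragments captured through a biotin placed on 5hmC. ES cells were grown with LIF, the cytokine that keeps mouse ES cells undifferentiated, and MEFs in serum medium without it. The sources used here do not give the mouse strain, the knockout allele, the age of the embryos, the number of clones or cultures, or the sequencing depth.

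For each cell type the authors deposited a list of 5 kb stretches of mm9, here called bins, that differed between knockout and wild type, with 8545 ES bins and 8972 MEF bins on chromosomes 1 to 19 and X. A listed bin is called altered here. The lists hold no level, fold, p-value or direction, so higher and lower 5hmC cannot be told apart, no value has a replicate error, and the cell types and the knockout could not be checked against marker genes. A gene was counted if an altered bin overlapped its body or the 5 kb upstream of it, called its window, in the GENCODE M1 annotation. The windows of the 10 genes cover 133 bins, of which 9 were altered in ES cells and 4 in MEFs.

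5hmC is made and its precursor maintained by these enzymes. DNMT3A and DNMT3B are the de novo DNA methyltransferases, DNMT3L is their catalytically inactive cofactor in germ cells and ES cells, and DNMT1 copies methylation after replication with the help of UHRF1, which binds hemimethylated CpG. TET1, TET2 and TET3 oxidise 5-methylcytosine to 5hmC and further forms, some of which the glycosylase TDG removes. UHRF2, a relative of UHRF1, has been described as a reader of 5hmC. LSH itself is required for normal DNA methylation in mouse embryos, and 5hmC in mammals lies mainly at CpG and often within transcribed genes.

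An altered bin is much longer than the captured fragments, so the 5hmC that differed may lie anywhere in it. As a view of the sequence involved, the 150 bases with the most CpG in selected altered bins are given below, outside untranslated regions, from the NCBIM37 (mm9) reference. They run 5′ to 3′ along the gene, with each CpG in capitals. The first pairs come from Tet1 and Dnmt3b, where the ES and MEF lists each have 1 bin, and the next lines from the coding exons of Tet3 and Dnmt1 and from the first Dnmt3a intron.
Tet1, ES bin, chr10:62328281-62328430, minus strand, 10 CpG: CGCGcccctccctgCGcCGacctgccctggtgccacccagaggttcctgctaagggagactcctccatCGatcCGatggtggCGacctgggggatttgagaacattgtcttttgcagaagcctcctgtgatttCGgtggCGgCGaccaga
Tet1, MEF bin, chr10:62308926-62309075, minus strand, 8 CpG: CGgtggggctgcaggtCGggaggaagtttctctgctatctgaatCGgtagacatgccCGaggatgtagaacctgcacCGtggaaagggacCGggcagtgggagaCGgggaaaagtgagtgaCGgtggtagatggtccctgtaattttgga
Dnmt3b, ES bin, chr2:153487664-153487813, plus strand, 5 CpG: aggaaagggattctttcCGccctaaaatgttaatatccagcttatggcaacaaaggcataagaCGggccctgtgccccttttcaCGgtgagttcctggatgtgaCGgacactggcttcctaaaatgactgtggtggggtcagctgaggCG
Dnmt3b, MEF bin, chr2:153484845-153484994, plus strand, 9 CpG: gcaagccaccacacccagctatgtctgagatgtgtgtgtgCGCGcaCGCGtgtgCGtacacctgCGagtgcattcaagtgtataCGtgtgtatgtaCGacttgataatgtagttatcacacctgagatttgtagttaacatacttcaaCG
Tet3, ES bin over exon 3, chr6:83354460-83354609, minus strand, 12 CpG: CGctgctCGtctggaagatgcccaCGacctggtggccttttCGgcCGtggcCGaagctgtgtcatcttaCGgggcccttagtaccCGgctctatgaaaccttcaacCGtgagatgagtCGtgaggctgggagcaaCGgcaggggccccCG
Tet3, ES bin over exon 11, chr6:83318228-83318377, minus strand, 12 CpG: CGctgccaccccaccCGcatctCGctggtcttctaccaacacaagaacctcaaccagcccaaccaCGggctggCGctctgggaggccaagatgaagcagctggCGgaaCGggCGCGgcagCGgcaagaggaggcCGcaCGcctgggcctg
Dnmt1, ES bin, chr9:20720217-20720366, minus strand, 7 CpG: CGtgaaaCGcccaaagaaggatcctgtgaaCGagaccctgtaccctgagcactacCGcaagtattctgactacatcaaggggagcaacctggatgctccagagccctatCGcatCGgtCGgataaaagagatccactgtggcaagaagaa
Dnmt3a, first ES bin, chr12:3818965-3819114, plus strand, 11 CpG: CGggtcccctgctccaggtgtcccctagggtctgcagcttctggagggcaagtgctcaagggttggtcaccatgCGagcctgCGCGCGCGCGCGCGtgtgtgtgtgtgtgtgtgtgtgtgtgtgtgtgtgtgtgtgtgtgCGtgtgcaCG

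Transcription starts were located separately, because 5hmC at starts and in gene bodies is usually described apart. The RefSeq table (assembly GRCm38.p6) gave 17 starts for the 10 genes, and all 17 matched the mm9 reference exactly near the gene named. Of these, 2 lay in an altered ES bin and 0 in an altered MEF bin. The starts in ES bins were the start of Tdg and an internal start of Dnmt3l at position 77518080 of chromosome 10. The 250 bases before each are shown with CpG in capitals.
Tdg, chr10:82092333-82092582, plus strand, 19 CpG: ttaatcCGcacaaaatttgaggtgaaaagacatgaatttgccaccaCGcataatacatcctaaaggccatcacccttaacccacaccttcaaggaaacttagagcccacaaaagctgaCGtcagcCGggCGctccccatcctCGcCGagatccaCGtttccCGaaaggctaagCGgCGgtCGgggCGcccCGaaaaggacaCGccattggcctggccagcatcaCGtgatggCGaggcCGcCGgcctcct
Dnmt3l, chr10:77517830-77518079, plus strand, 3 CpG: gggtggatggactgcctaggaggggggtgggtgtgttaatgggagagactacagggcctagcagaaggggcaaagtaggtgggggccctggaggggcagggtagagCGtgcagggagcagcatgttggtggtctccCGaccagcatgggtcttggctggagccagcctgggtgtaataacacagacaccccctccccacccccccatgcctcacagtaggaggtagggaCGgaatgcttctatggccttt
The sequence before the Tdg start holds 19 CpG and that before the internal Dnmt3l start holds 3.

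In ES cells 7 of the 10 genes had an altered bin, namely Tet1, Tet3, Dnmt1, Dnmt3a, Dnmt3b, Dnmt3l and Tdg. Tet3 and Dnmt3a had 2 bins each and the other 5 had 1 each. Tet2, Uhrf1 and Uhrf2 had none. Among all 26031 genes 19.8% had an ES bin, and among the 7494 protein-coding genes within the length range of the 10 genes, from 20.2 to 108 kb, the share was 29.4%. By bins, 6.77% of the 133 bins were altered in ES cells (exact 95% binomial interval 3.14% to 12.5%), against 2.60% of bins in the windows of protein-coding genes and 1.62% of all bins. The interval covers counting over bins only, and neighbouring bins of a gene are not independent. The 10 genes were also set with earlier results of these data known, so the interval is no test of an excess.

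In MEFs 4 of the 10 genes had an altered bin, with 1 bin each in Tet1, Dnmt3a, Dnmt3b and Uhrf2. The share among all genes was 14.1%, and among protein-coding genes of the same length range it was 19.0%. Of the 133 bins, 3.01% were altered in MEFs (exact 95% binomial interval 0.825% to 7.52%), against 2.37% of bins in the windows of protein-coding genes and 1.70% of all bins. The MEF share by bin lay near that of other coding genes, while by gene it was 40% of only 10 genes against 19.0%. The ES and MEF intervals overlap, but both count the same 133 bins, so the overlap is no test of a difference. With 1 library per genotype, a difference between ES cells and MEFs in these counts has no replicate check and cannot be told apart from a difference in depth or in how each list was made.

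**Figure D1:**
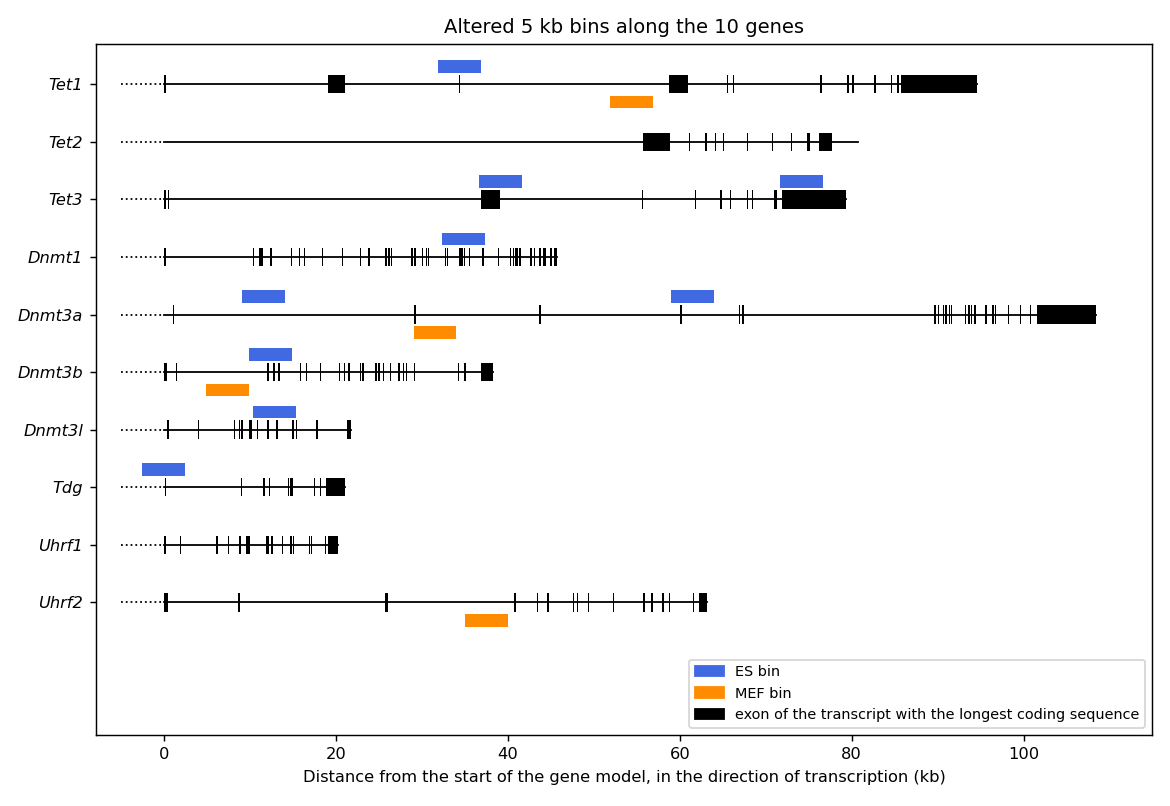
Map of the altered bins along the 10 genes, with distance from the start of the gene model in kb on the horizontal axis and 1 gene per row. Black blocks are exons, the dotted line is the upstream 5 kb, blue boxes above a gene are the 9 ES bins and orange boxes below it the 4 MEF bins; no ES box lies over a MEF box, and the Dnmt3b boxes meet end to end.

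Tet1, Dnmt3a and Dnmt3b were on both lists, against 5.90% of all genes, but through different bins. That share is not matched for gene length, and longer genes have more bins in which a change can be listed. No bin in the 10 windows was altered in both cell types. The share of all bins on both lists was not counted. With 9 ES and 4 MEF bins among 133, this absence is a description only. In Dnmt3b the MEF bin (chr2:153480001-153485000) ended where the ES bin (chr2:153485001-153490000) began. In Tet1 a gap of 15 kb separated the ES bin from the MEF bin further along the gene. In Dnmt3a the MEF bin lay between the ES bins, 15 kb from one and 25 kb from the other. Tet3, Dnmt1, Dnmt3l and Tdg had bins in the ES list alone and Uhrf2 in the MEF list alone, a difference between lists that was not tested.

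Among the TET dioxygenase genes, Tet3 had 2 altered bins, both in ES cells, and Tet1 had 1 in each cell type. Tet3 (chr6:83312367-83391672, minus strand) had an ES bin over exon 3 of 11 (chr6:83350001-83355000), which holds codons 1 to 705 of 1668 and lies 36.7 to 41.7 kb from the gene start. Its other ES bin (chr6:83315001-83320000) lay over the last exon, with codons 1075 to 1668, at 71.7 to 76.7 kb. These bins contain 2113 and 1781 coding bases, the most of any altered bin at the 10 genes. The C-terminal part of TET proteins carries the catalytic domain, and the last exon encodes part of that end. In MEFs no Tet3 bin was altered, and the closest MEF bin outside the window was 288 kb away.

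Tet1 (chr10:62267318-62361866, minus strand) had its ES bin at chr10:62325001-62330000, 31.9 to 36.9 kb into the gene. It covers exon 3 of 13, with codons 622 to 639 of 2039, and parts of introns 2 and 3. A non-coding Tet1 transcript model starts in it at 62328052, which classes the bin as promoter although no RefSeq start of Tet1 lies there. The MEF bin (chr10:62305001-62310000) lay wholly in intron 3, 51.9 to 56.9 kb into the gene. Tet2 (chr3:133126643-133207354), the other family member, had 0 of 18 bins altered in either list. The closest bins outside its window were 41.6 kb away in ES cells and 72.6 kb away in MEFs.

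Of the methyltransferase genes, Dnmt1 (chr9:20711650-20757317, minus strand) had 1 ES bin (chr9:20720001-20725000). It spans exons 22 to 28 of 39, with 1097 coding bases and codons 661 to 1026 of 1620, in the later part of the gene. None of the 11 Dnmt1 bins was altered in MEFs. The 3 RefSeq starts of Dnmt1 lay outside altered bins.

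Dnmt3a (chr12:3806007-3914443, plus strand), the longest of the 10 genes, had 3 altered bins among 23. The first ES bin (chr12:3815001-3820000) lay in intron 1, 8.99 to 14.0 kb from the start of the gene model. The second (chr12:3865001-3870000) covers exon 4 of 23 with codons 57 to 146 of 908, and a transcript model starts in it, at 3866191. This bin also overlaps the upstream 5 kb of the non-coding model Gm10485, which lies on the opposite strand. The MEF bin (chr12:3835001-3840000) covers exon 2, which holds codons 1 to 21. Dnmt3a is also read from an internal start that gives a shorter protein, and none of the 3 RefSeq starts of Dnmt3a, that internal one at position 3891744 included, lay in an altered bin.

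Dnmt3b (chr2:153475186-153513466, plus strand) had its ES bin over exons 3 to 5 of 24, which hold codons 1 to 118 of 860. The MEF bin beside it lay in intron 2, 4.82 to 9.81 kb from the gene start, and also overlaps the upstream 5 kb of the non-coding model 7530422B04Rik. The midpoints of these bins lay at 32.2% (ES) and 19.1% (MEF) of the gene length.

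Dnmt3l (chr10:77504692-77526367, plus strand) had 1 ES bin (chr10:77515001-77520000). It spans exons 8 to 11 of 14, with codons 149 to 293 of 421, and holds the internal start printed above, from which 3 protein-coding transcript models begin. The bins with the other RefSeq starts, at positions 77505032 and 77512587, were not altered. No Dnmt3l bin was altered in MEFs.

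Tdg (chr10:82092573-82113544, plus strand) was the only one of the 10 genes whose first transcription start lay in an altered bin. The ES bin (chr10:82090001-82095000) reached from 2572 bases before the start of the gene model to 2427 bases after it, and holds exon 1 with codons 1 to 8 of 421. It also overlaps part of the 5 kb upstream of the divergent gene 1190007I07Rik, so it cannot be assigned to Tdg alone. The Tdg start lies outside the overlapping part. No Tdg bin was altered in MEFs.

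Of the UHRF genes, Uhrf1 (chr17:56442744-56462909) had 0 of 6 bins altered in either list, and the closest bins outside its window were 87.1 kb away in ES cells, at Ptprs, and 37.1 kb away in MEFs, at Kdm4b. Uhrf2 (chr19:30105003-30168212, plus strand) had 1 MEF bin (chr19:30140001-30145000), in intron 3, 35.0 to 40.0 kb from the gene start. Uhrf2 was the only member with a MEF bin and no ES bin.

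Position within the genes differed between the lists in number. Of the 9 ES bins, 8 overlapped an exon of the gene or the 1 kb either side of one of its transcript starts, and 1 lay wholly in an intron. Of the 4 MEF bins, 1 overlapped an exon and 3 lay in introns. For all protein-coding genes the same rule gave 62.5% of gene and ES bin pairs and 45.8% of gene and MEF bin pairs, and among the 120 bins of the 10 windows on neither list it gave 61.7%. Measured at the bin midpoint, the count in ES cells was 4 of 9 rather than 8, because the exons of Dnmt1, Dnmt3a, Dnmt3b and exon 3 of Tet3 lie away from the middle of their bins. The midpoints of the ES bins lay from -0.343% (Tdg) to 93.5% (Tet3) of the gene length and those of the MEF bins from 19.1% (Dnmt3b) to 59.3% (Uhrf2).

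CpG density, which the rule did not use, was 10 to 29 per kb in the 9 ES bins, with a median of 14. In the 4 MEF bins it was 8.8 to 12.4 per kb with a median of 10.6, and in the 120 bins on neither list 3.4 to 64.2 per kb with a median of 11.2. The medians over all altered bins were 12.6 in ES cells and 11 in MEFs. The ES bins at Tdg (29.0 per kb) and at the last exon of Tet3 (28.2 per kb) were the richest in CpG within their windows. The other altered bins ranked between 3 and 12 in theirs. Median GC content was 51.1% in the ES bins, 46.5% in the MEF bins and 46.5% in bins on neither list.

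The bins at transcription starts were mostly richer in CpG than the median of 11.4 per kb over all 133 bins. The 14 distinct bins that hold a RefSeq start had 10.2 to 64.2 CpG per kb with a median of 23, and 2 of them were altered in ES cells and 0 in MEFs, against 9 and 4 of all 133 bins. These numbers are too small to place the starts above or below the rest of the windows. The richest, at the start of Dnmt3a, had 64.2 per kb, followed by those of Dnmt3b (36), Uhrf1 (33.6), Tet2 (32) and Uhrf2 (31), none on either list. Since the lists give no level, a bin without detectable 5hmC in either genotype cannot be told apart from one whose 5hmC did not differ. Repeated sequence made up little of the altered bins, with 0% to 10.9% of the 32-base words of each of the 13 bins occurring elsewhere in the genome. The median was 4.59% in ES bins, 3.7% in MEF bins and 5.82% in bins on neither list, which ranged from 0% to 59%.

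**Figure D2:**
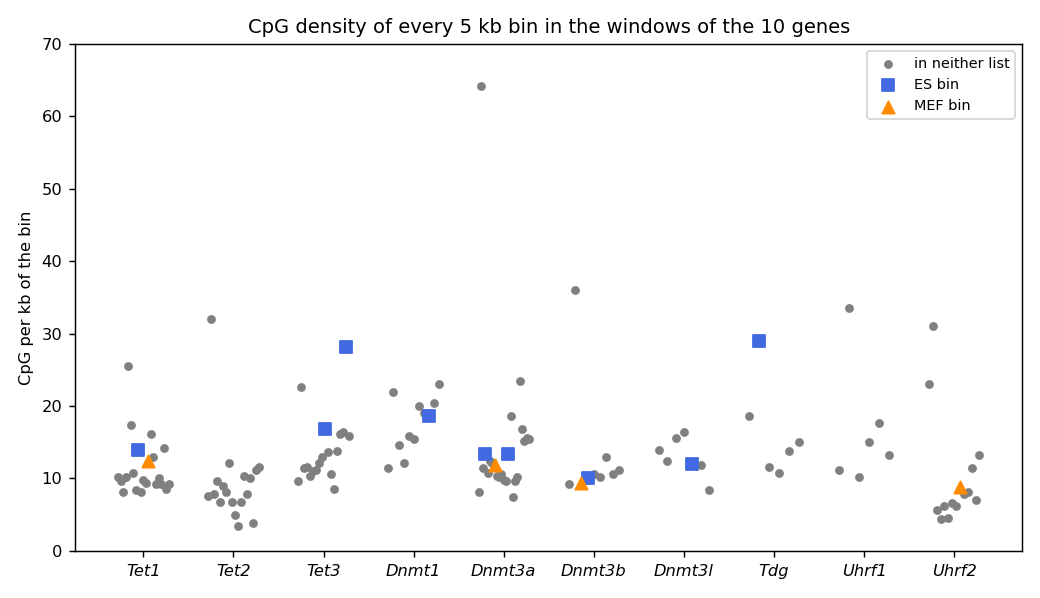
CpG per kb of each of the 133 bins in the windows of the 10 genes, in order along each gene from left to right; blue squares are ES bins, orange triangles MEF bins and grey points bins on neither list. The bin at the Dnmt3a start, at 64.2 per kb, and those at the Dnmt3b, Uhrf1, Tet2 and Uhrf2 starts are grey, while the Tdg start is blue.

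Other genes of the pathway were counted in 5 further lists. In all, 15 of 57 genes (26.3%) had an ES bin and 3 of 57 (5.26%) a MEF bin. Among all genes the shares were 19.8% and 14.1%. By bins, 20 of the 437 in the windows of the 57 genes were altered in ES cells and 3 in MEFs. The shares of bins in the windows of protein-coding genes were 2.60% and 2.37%. The 57 genes have a median length of 18.2 kb against 54.4 kb for the 10 genes, and longer genes have more bins in which a change can be listed. Among 22 regulators of TET and DNMT proteins, 10 had an ES bin and 1 a MEF bin. Kdm1a, a demethylase that acts on histones and on DNMT1, had 2 ES bins, Cxxc5 had 1 bin in each list, and Cxxc4 and Dppa3, the latter a maternal factor that protects methylation, had 1 ES bin each.

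Among 7 genes for readers of methylated CpG, Zbtb38 had 4 ES bins and 1 MEF bin, and Mbd2 had 1 ES bin upstream of the gene. Of 11 genes that supply cofactors or the methyl donor, 1 had ES bins and 1 a MEF bin. They were Idh2 and Ahcy. Idh2, a mitochondrial source of the TET cofactor 2-oxoglutarate, had 2 ES bins, 1 near each end of the gene. Both reach within 1 kb of the start of a transcript model, although only 1 of these ends is the gene start. Ahcy, which clears the methylation by-product S-adenosylhomocysteine, had 1 MEF bin within 1 kb of a transcript start. Of 13 base excision repair genes, Parp1 and Polb had 1 ES bin each and none had a MEF bin. Of the 4 genes for LSH and its partners, Hells, Cdca7, Cdca7l and Zbtb24, none was altered in either list.

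**Figure D3:**
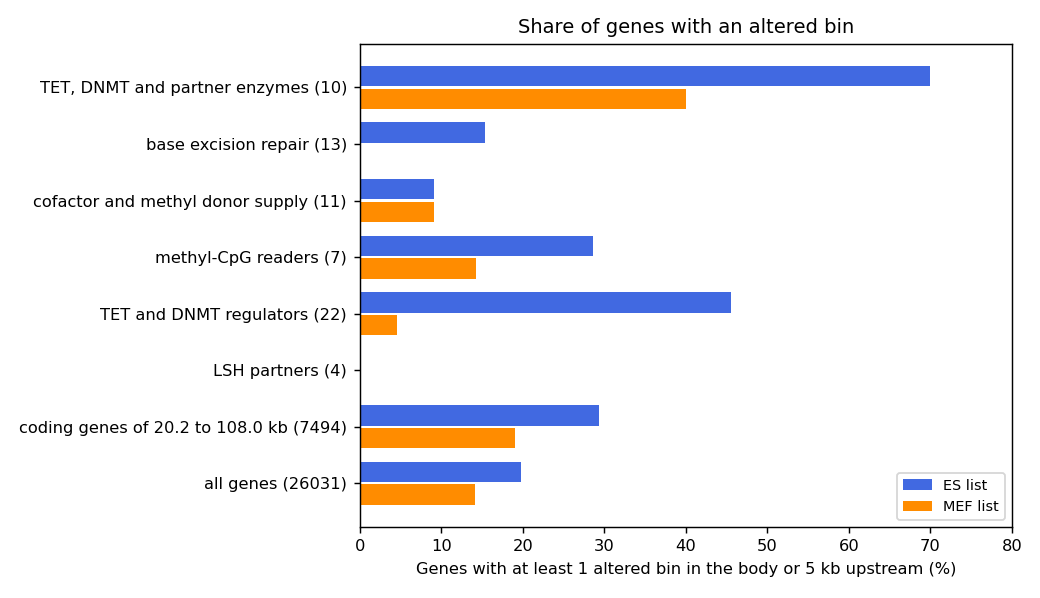
Percent of genes with at least 1 altered bin in the body or 5 kb upstream, for the 10 genes, the 5 further lists, protein-coding genes of 20.2 to 108 kb and all genes (number of genes in brackets), with the ES list in blue and the MEF list in orange. The 10 genes reach 70% and 40%, against 29.4% and 19.0% of coding genes in their length range. The lists differ in gene length, and the 10 genes and the further lists were set with earlier results of these data known.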

How the data were processed

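Libraries of captured 5hmC DNA from 4 groups, 1 each, were processed by the authors. BWA and SAMtools 1.3.1 on mm9 are named in the submitters' processing notes, without their roles. The files deposited by the authors hold no measured level: their columns are other than that, namely positions of bins, of 5 kb in all but 1 listed MEF bin. How bins were counted and called, at which threshold and against which input is not given in the sources used here.

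All bins start on multiples of 5000 bases, and those on chromosomes 1 to 19 and X end within the NCBIM37 (mm9) chromosomes. Genes were 26031 protein-coding, lincRNA and processed transcript models of GENCODE M1, the longest locus for a repeated name. Any overlap of a bin with the body or upstream 5 kb counted. A bin was promoter if within 1 kb of a transcript start of the gene, otherwise exon, intron or upstream. Exons and codons are numbered in the transcript with the longest coding sequence. Repeated words were 32 bases long and were counted on both strands of the whole reference. Symbols of the 5 further lists were matched by name or RefSeq synonym, 57 of 57; 1 further gene is not reported here. No test was run, since each group has 1 library. Intervals are exact (Clopper-Pearson) and cover counting only. The 10 genes were chosen by name, and they and the lists were set with earlier results of these data known; further genes were named if altered, at most 4 a list in order of bins. The overlap code was tested on simulated bins. Computations used numba 0.67.0, pandas 2.3.3, numpy 2.4.6 and scipy 1.17.1 under Python 3.11.15, and figures matplotlib 3.10.9.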

Additional observations from a re-analysis of the deposited data

How the results depend on the processing

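The counts were recomputed with the gene body alone, with 10 kb upstream, with 5 kb on both sides, over the longest protein-coding transcript, by bin midpoint and with a minimum overlap of 1000 bases. Under these 6 alternatives the numbers of genes (7 in ES cells, 4 in MEFs), of bins (9 and 4) and of bins on both lists (0) were all equal to those reported. Apart from the Tdg bin, with 2428 bases inside the gene, each altered bin lay wholly inside its gene. The rules by gene body, midpoint and minimum overlap therefore could not have changed these counts. Counting an ES bin as shared when a MEF bin lay within 10 kb gave 1 shared bin in place of 0, at Dnmt3b. Taking the position class at the bin midpoint gave 4 ES bins over an exon or promoter in place of 8. A promoter distance of 2 kb and the use of protein-coding transcripts alone left that count at 8, and these 3 alternatives left the MEF count at 1. No stricter threshold was tried, since the lists carry no score. No paired analysis was possible because each group has 1 library. The depth of the libraries is unknown, and a gene without an altered bin is not shown to lack a change.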

Other observations

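Altered bins also lay just outside the windows of some of the 10 genes, within 20 kb. The total of bins in these flanks was not counted. No share can therefore be set beside the 1.62% (ES) and 1.70% (MEF) of all bins that were altered. Both lists contained the bin chr9:20775001-20780000, 12.7 kb beyond the upstream end of the Dnmt1 window, at S1pr2, which encodes a sphingosine-1-phosphate receptor. It was thus shared by ES cells and MEFs. Downstream of Uhrf2 an ES bin (chr19:30175001-30180000) and a MEF bin (chr19:30180001-30185000) met end to end at Gldc, the gene of the glycine cleavage enzyme glycine decarboxylase, 6.79 and 11.8 kb past the gene. A further MEF bin lay 10 kb before the Uhrf2 window.

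Around Dnmt3l there were 3 ES bins outside the window, 1 of them 14.7 kb upstream and 2 touching ones from 13.6 kb downstream at Icosl, which encodes a ligand for T-cell costimulation. A MEF bin lay 19.7 kb upstream of the window, at Pfkl, which encodes the liver phosphofructokinase subunit, and it ended where the upstream ES bin began. ES bins also lay 12.3 kb downstream of Tet1, at Ccar1, and 15.6 kb downstream of Dnmt3a, outside any gene window. No altered bin lay within 20 kb of the windows of Tet2, Tet3, Dnmt3b, Tdg or Uhrf1.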
